A study of Mus musculus with 9 samples.

Results

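The colony-stimulating factors and their receptors were followed here through 7 genes of the deposited retinal expression table, chosen by their symbols out of 22337 genes: the ligands Csf1 and Il34, and the receptor chains Csf1r, Csf2ra, Csf2rb, Csf2rb2 and Csf3r. RNA-seq had been carried out on retinas of 3 groups of mice at P28 (postnatal day 28), with 3 libraries per group. WT mice were untreated C57BL/6J. Rd10 mice carry a mutation in Pde6b, a subunit of the rod phosphodiesterase, and lose their photoreceptors; they received 1 μl of normal saline (NS) or of MSC-EVs, extracellular vesicles collected from cultured human umbilical cord mesenchymal stem cells, into both eyes at P14 and again at P21. The control for MSC-EVs is therefore the NS-treated rd10 retina, and no uninjected rd10 or injected WT retina was analysed here. Nothing in the labels says whether a library came from one animal or several, so p-values measure the spread between these libraries.

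CSF1 and IL-34 are the ligands of CSF1R, the receptor tyrosine kinase on which microglia and most tissue macrophages depend for survival and proliferation. The receptors for GM-CSF, IL-3 and IL-5 pair a ligand-specific alpha chain with a shared beta chain, which in the mouse has a near-identical copy used for IL-3, and signal through JAK2 and STAT5. CSF3R binds G-CSF, is best known from neutrophils, and signals largely through STAT3. In the retina, microglia normally sit in the inner and plexiform layers and accumulate where photoreceptors die.

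Csf2rb (78325752 to 78353847, plus strand) and Csf2rb2 (78282507 to 78305721, minus strand) lie side by side on chromosome 15 of GRCm38, turned in opposite directions. Their sequences are shown because the counting had to divide reads between both copies. Their coding sequences in GENCODE M21 were 2688 bases long in Csf2rb (transcript Csf2rb-206) and 2634 bases long in Csf2rb2 (transcript Csf2rb2-201), and 95.4% of 2626 aligned bases were the same, leaving 122 that differed and 70 gap columns. The longest identical run was 242 bases, and 15 identical runs reached 50 bases or more. The aligned window of 90 bases with the most differences held 16, shown in capitals, at coding bases 308 to 397 of Csf2rb and 311 to 400 of Csf2rb2.
Csf2rb, coding bases 308 to 397: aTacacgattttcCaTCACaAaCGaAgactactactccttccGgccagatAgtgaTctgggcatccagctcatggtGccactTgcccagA
Csf2rb2, coding bases 311 to 400: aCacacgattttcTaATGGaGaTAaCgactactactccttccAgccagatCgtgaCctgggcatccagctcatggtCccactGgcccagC
A read that covers several of these bases can be told to come from one copy or the other. The next stretch, coding bases 662 to 751 of Csf2rb and 665 to 754 of Csf2rb2, is 1 of those with no difference at all, and a read lying wholly within it fits both genes.
Csf2rb and Csf2rb2, shared stretch: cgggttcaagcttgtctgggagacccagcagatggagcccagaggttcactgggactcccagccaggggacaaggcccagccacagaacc
Over the transcripts, 12.3% of the 50-base stretches of Csf2rb and 18.9% of those of Csf2rb2 were shared with other genes, mostly with each other, so the split between them is uncertain and their sum is given as well.

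All 7 genes were protein coding in GENCODE M21 on GRCm38. Csf1 lies on chromosome 3 (107741048 to 107760469, minus strand) and Il34 on chromosome 8 (110741829 to 110805924, minus strand), where the antisense genes Gm15894 and Gm15895 overlap it. Csf1r lies on chromosome 18 (61100598 to 61132149, plus strand). Csf1r is overlapped by Hmgxb3 on the other strand, and 14.3% of the 50-base stretches of its transcripts also occur in other genes, here Hmgxb3. Csf2ra lies on chromosome 19 (61223957 to 61228429, minus strand) and Csf3r on chromosome 4 (126024550 to 126044440, plus strand), with 10.7% of its 50-base stretches shared with others, 402 genes in all, among which AC105061.2 shared the most. The sources used here do not say whether the counting used strand, so reads from overlapping genes may not be separable.

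The libraries differed in depth and in sex-linked expression before any of the 7 genes is considered. Counts summed to 24155041, 23966626 and 21719264 in WT, to 28545637, 19491741 and 20762680 in rd10 given NS, and to 23058126, 22604497 and 62532365 in rd10 given MSC-EVs, so a single count stood for 0.016 to 0.0513 CPM, the count scaled to library size. The CPM values given for genes were further scaled by edgeR's TMM factors. The 4 Y-linked genes Kdm5d, Uty, Ddx3y and Eif2s3y summed to 4379 and 4421 counts in MSC-EVs replicates 1 and 2, and to between 7 and 23 counts in the other 7 libraries. The labels give no sex. These 2 MSC-EVs libraries thus stood apart from every NS library in a way that the treatment labels do not describe, and the log2 fold changes between the rd10 groups are given with and without them. The retinal markers Nefl and Glul were present in every library.

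In WT retina the 7 genes spanned levels from near the counting limit to several FPKM, the unit that scales fragments to transcript length and so allows genes to be set against each other. Csf2ra (4.25 ± 0.50 FPKM, mean ± SD, n = 3) and Il34 (4.15 ± 0.26) were highest and their ranges overlapped. Csf1r (3.02 ± 0.48) and Csf1 (1.59 ± 0.37) followed, each apart from its neighbours. Csf3r (0.227 ± 0.057), Csf2rb (0.123 ± 0.162) and Csf2rb2 (0.0667 ± 0.0153 FPKM) came last with overlapping ranges, on 2 to 20 counts per library. The order changed in rd10. In NS-treated rd10, Csf1r led at 19.1 ± 7.11 FPKM, apart from Il34 (7.54 ± 0.53) and Csf2ra (7.39 ± 0.68), which overlapped. Csf1 stood at 5.16 ± 1.07 FPKM, and Csf2rb (2.69 ± 0.57), Csf3r (1.93 ± 0.56) and Csf2rb2 (1.17 ± 0.30 FPKM) formed a last group in which each overlapped the next. In MSC-EVs-treated rd10, Csf1r again led at 28.6 ± 5.68 FPKM, and Il34 (7.94 ± 0.38), Csf1 (7.66 ± 1.48), Csf2ra (6.20 ± 0.49) and Csf2rb (6.14 ± 1.68 FPKM) each overlapped the next. Csf3r (2.45 ± 0.20) and Csf2rb2 (1.997 ± 0.715 FPKM) were lowest and overlapped.

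**Figure D1:**
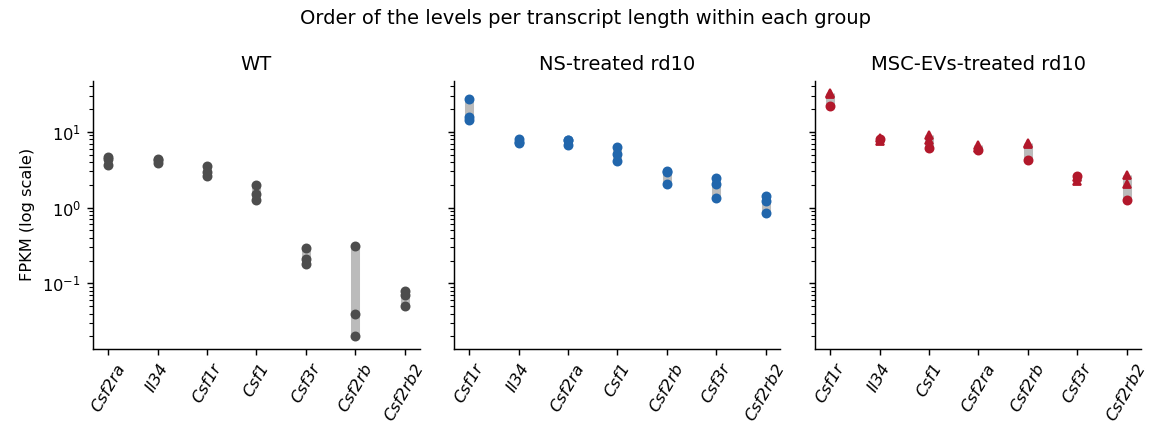
FPKM on a log scale (y axis) of the 7 genes, ordered by group mean from left to right, in the 3 groups. Points are libraries (n = 3 per group), grey bars their range, and triangles MSC-EVs replicates 1 and 2, which carry Y-linked counts; Csf1r stands behind Csf2ra and Il34 in WT and ahead of all others in both rd10 groups.

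The first comparison asked how the degenerating, saline-treated retina differs from WT. All 7 genes were higher in NS-treated rd10, by log2 fold changes from 0.64 for Csf2ra to 5.50 for Csf2rb, and every NS library lay above every WT library for each of them. The 7 calls at an adjusted p under 0.05 (edgeR quasi-likelihood test, Benjamini-Hochberg over 14644 genes) stand against a background in which 31.1% of all genes tested were called higher and 30.1% lower. With a limit of at least 2-fold, 5 of the 7 were called higher, against 9.16% of all genes, and all 7 were higher without overlap, against 33.6%. The median log2 fold change of the 7 was 2.44, and that of all genes tested was 0.01.

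Of the ligands, Csf1 was at 6.55, 5.37 and 5.76 CPM in the WT libraries and at 18.9, 18.5 and 14.6 CPM in the NS libraries. The lowest NS library was thus more than 2-fold above the highest WT library. Its log2 fold change was 1.56 (SE 0.13, adjusted p = 1.03e-06 by edgeR). Il34, the ligand made mainly by neurons, was at 8.17, 7.70 and 7.27 CPM in WT and at 11.78, 13.30 and 12.03 CPM in NS-treated rd10. The groups did not overlap, but the step was smaller, with a log2 fold change of 0.68 (SE 0.11, adjusted p = 0.000219 by edgeR).

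Csf1r, the receptor of both ligands, had 270, 240 and 242 counts in WT and 2258, 1124 and 1273 counts in NS-treated rd10. On the CPM scale these were 12.1, 10.7 and 12.1 against 76.2, 55.0 and 58.2, with NS replicate 1 above the other 2 NS libraries. The log2 fold change was 2.44 (SE 0.13, adjusted p = 1.29e-07 by edgeR).

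The chains of the GM-CSF, IL-3 and IL-5 receptors did not rise by the same amount. Csf2ra, the alpha chain that binds GM-CSF, was at 7.36, 8.99 and 8.77 CPM in WT and at 11.8, 13.7 and 13.7 CPM in NS-treated rd10, a log2 fold change of 0.64 (SE 0.12, adjusted p = 0.000562 by edgeR). Csf2rb, the beta chain shared by the GM-CSF, IL-3 and IL-5 receptors, went from 9, 4 and 2 counts in WT to 414, 179 and 201 counts in NS-treated rd10. It thus passed from a handful of counts to 14.0, 8.76 and 9.20 CPM, and its log2 fold change of 5.50 (SE 0.35, adjusted p = 2.21e-07 by edgeR) rests on those few WT counts. With 1 library left out it ranged from 5.18 to 6.19, the highest without WT replicate 1. Csf2rb2, the copy that serves the IL-3 receptor, had 3, 4 and 5 counts in WT and 193, 115 and 77 counts in NS-treated rd10, with a log2 fold change of 4.78 (SE 0.36, adjusted p = 4.01e-07 by edgeR).

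Taking both copies as one gene removed the question of how reads were divided between them. Their sum was at 0.416 ± 0.106 CPM in WT and 15.9 ± 4.09 CPM in NS-treated rd10 (SD, n = 3), a log2 fold change of 5.24 (SE 0.27, adjusted p = 2.51e-08 by edgeR). Csf2rb2 took 31.8%, 39.1% and 27.7% of the summed counts in the NS libraries, with 95% Wilson intervals of 28.2% to 35.6%, 33.7% to 44.8% and 22.8% to 33.2%. In WT the share could not be fixed, since it rested on 12, 8 and 7 counts (25%, 50% and 71.4%, with intervals from 8.89% to 91.8% over the 3 libraries). The mean share did not differ between WT and NS beyond the spread (exact permutation test, two-sided, p = 0.4, where 3 against 3 libraries cannot go below 0.1). The intervals cover counting error only.

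Csf3r, the G-CSF receptor, had 18, 14 and 20 counts in WT and 223, 81 and 141 counts in NS-treated rd10. These correspond to 0.808, 0.626 and 1.00 CPM against 7.53, 3.96 and 6.45 CPM, with NS replicate 2 the lowest of its group but still above every WT library. Its log2 fold change was 2.89 (SE 0.29, adjusted p = 3.81e-06 by edgeR).

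**Figure D2:**
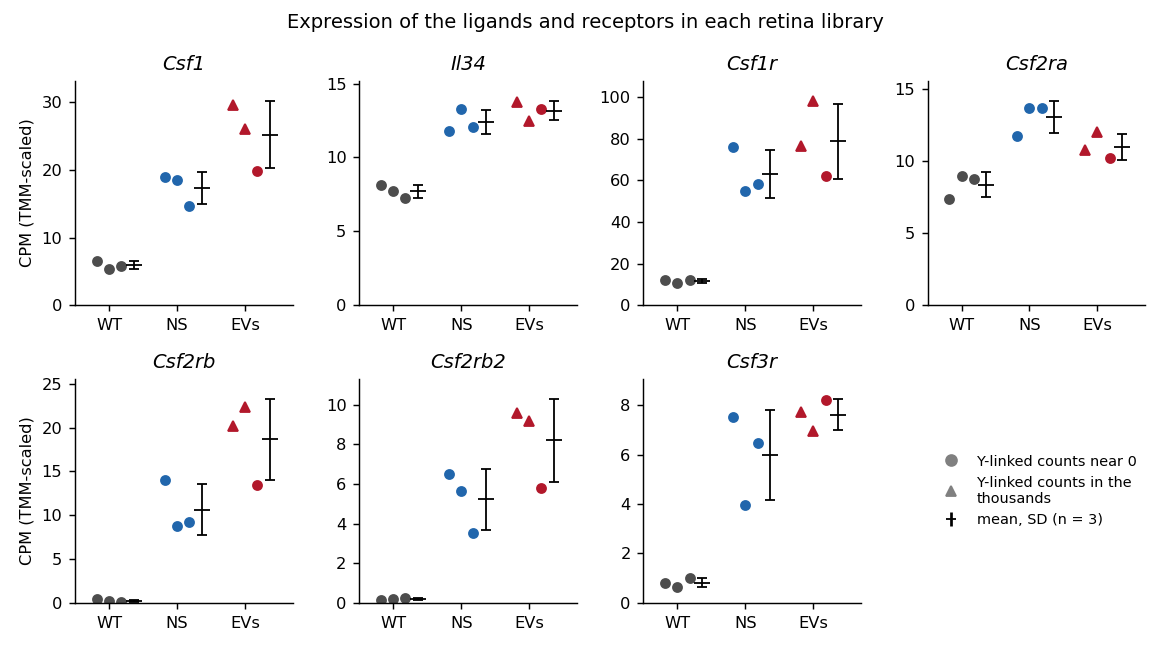
CPM (y axis, from 0, scaled by TMM factors) of each of the 7 genes in the 9 libraries, by group, with the mean and SD beside the points (n = 3) and triangles for MSC-EVs replicates 1 and 2, which carry Y-linked counts. Every rd10 library lies above every WT library for all 7 genes, while NS and MSC-EVs libraries are separated for Csf1 alone.

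The ligands of the Csf2rb, Csf2rb2 and Csf3r receptors were close to undetected. Csf2, which encodes GM-CSF, had 2 counts in NS replicate 1 and 0 in the other 8 libraries, where a count of 0 allows up to 3 counts. Il3 had 0 counts in all 9 libraries, and Il5 had 0 to 3. Csf3, which encodes G-CSF, had 3, 7 and 2 counts in WT, 1, 0 and 4 in NS-treated rd10, and 0, 46 and 2 in MSC-EVs-treated rd10. MSC-EVs replicate 2 therefore held most of the Csf3 counts of the whole data set. None of these 4 ligands passed the filter on low counts, so none was tested.

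Other receptors and downstream genes were counted from lists of 50 genes in all, of which 45 were tested. Between WT and NS-treated rd10, 31 of the 45 were called higher, 3 lower and 11 were not called, with a median log2 fold change of 0.67. Over all genes tested 31.1% were called higher and 30.1% lower, and the counts of every list and marker set in this comparison stand against the same shares. Of the 5 other receptors tested, 3 were called higher. They included Sdc1, a syndecan that binds IL-34 (log2 fold change 1.96, SE 0.37, adjusted p = 0.000594 by edgeR), and Kit, a receptor tyrosine kinase related to Csf1r (log2 fold change 0.33, with an adjusted p that rounds to the threshold and groups that overlapped). Ptprz1, a receptor phosphatase that also binds IL-34, was not called (0.13). The third called was Il3ra, named after its values were seen, the alpha chain of the IL-3 receptor that pairs with the beta chains. It was at 0.898, 1.25 and 0.902 CPM in WT and at 2.09, 2.84 and 2.61 CPM in NS-treated rd10, without overlap (log2 fold change 1.29, SE 0.26, adjusted p = 0.000999 by edgeR). Between the rd10 groups it was not called (1.75, 2.39 and 1.53 CPM with MSC-EVs, log2 fold change -0.42, adjusted p = 0.391 by edgeR).

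Of the 19 genes for CSF1R signalling and shedding, 14 were called higher, 0 lower and 5 were not called (median 0.65). The largest rise was that of Tyrobp, the adaptor DAP12 of myeloid receptors, from 2.02, 1.88 and 2.20 CPM in WT to 27.8, 24.7 and 20.1 CPM in NS-treated rd10, a log2 fold change of 3.58 (SE 0.15, adjusted p = 4.10e-09 by edgeR). Mapk3, a ubiquitous kinase and among the most abundant genes of the list, was called higher with a log2 fold change of 0.41. Cbl, the ubiquitin ligase that takes activated CSF1R toward degradation, was not called (-0.13).

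In the JAK-STAT arm, 7 of 12 genes were called higher, 1 lower and 4 were not called (median 0.47). Stat3 was at 80.0, 77.9 and 84.6 CPM in WT and at 234, 289 and 264 CPM in NS-treated rd10, a log2 fold change of 1.70. Socs3, the feedback inhibitor induced by STAT3, had the largest rise of the list, from 2.92, 3.98 and 4.26 CPM to 67.9, 61.7 and 72.6 CPM (log2 fold change 4.18, adjusted p = 2.68e-10 by edgeR). Cish, a feedback inhibitor best known as a STAT5 target, was the only called fall of this list, with a log2 fold change of -0.45, and Jak1 was not called (-0.02).

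Of the 9 myeloid transcription factors, 7 were called higher and 2 lower (median 2.60). Spi1, which encodes PU.1, the factor on which myeloid expression of Csf1r and Csf3r depends, had 5, 1 and 5 counts in WT and 117, 69 and 55 counts in NS-treated rd10, a log2 fold change of 4.23. Cebpb rose by a log2 fold change of 3.10. Mef2c, which is also expressed in photoreceptors, fell from 128, 137 and 141 CPM to 29.0, 35.0 and 24.4 CPM, a log2 fold change of -2.20 (adjusted p = 1.04e-07 by edgeR).

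PU.1 binds a purine-rich core, and the letters GAGGAA, or TTCCTC for a match on the other strand, were searched for in windows of 300 bases, from 250 before to 50 after the gene start, of RefSeq on GRCm38.p6. Windows were given for 4 of the 7 genes, Csf1, Csf2ra, Csf2rb2 and Csf3r, and 3 of these held the letters, as did 28.1% of all 32544 windows. They are shown on the gene strand with 12 bases on either side and the match in capitals. The match begins 86 bases before the start of Csf3r, 167 before and 29 after that of Csf2rb2, and 14 before that of Csf2ra, where a second, abutting match follows. These distances are counted from the RefSeq start. For Csf3r and Csf2ra that start lies inside the GENCODE span given above, so the Csf3r match and the second Csf2ra match, although before the RefSeq start, fall within that span.
Csf3r, chr4:126024561-126024590, plus strand: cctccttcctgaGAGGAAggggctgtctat
Csf2rb2, chr15:78305871-78305900, minus strand: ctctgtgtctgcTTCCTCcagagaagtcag
Csf2rb2, chr15:78305675-78305704, minus strand: ggcactggcaacTTCCTCaatctgctctct
Csf2ra, chr19:61228415-61228444, minus strand: caacctgcagatGAGGAAgaggaagcggga
These are matches of letters and not measured binding sites, and with 4 windows their share is a description only.

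Markers of several immune cell types moved in the same comparison. The 18 microglia and macrophage markers followed, all with counts and with Ctss the most abundant by mean FPKM over the 9 libraries, the scale behind each leading marker named here, summed to 100.8, 97.0 and 97.6 CPM in WT and to 707, 673 and 582 CPM in NS-treated rd10, and 18 of 18 were called higher (median log2 fold change 3.15). The 6 markers of infiltrating monocytes, led by Ly6c2, rose from 0.224, 0.224 and 0.150 CPM to 20.3, 9.64 and 6.82 CPM, and all 6 were called higher. In bulk tissue, more cells of a type and more RNA per cell cannot be told apart. Neutrophil markers were near the counting limit in both groups, with Elane at 0 counts in all 9 libraries. S100a9 led by mean FPKM (0.28) but had 0 counts in every WT library, and Cxcr2, named after its values were seen, led by mean CPM (0.245). The 9 markers summed to 0.1346, 0.179 and 0.1002 CPM in WT and to 0.675, 0.734 and 0.686 CPM in NS-treated rd10, each NS library above every WT library, and none passed the filter. The markers of perivascular macrophages, led by Lyve1 and with Cd209f at 0 counts, summed to 19.5, 18.8 and 18.9 CPM in WT and 24.4, 18.4 and 20.4 CPM in NS-treated rd10. Most of that sum was Lyve1, which was called lower (18.7 against 15.1 CPM, log2 fold change -0.30), while the other 2 members tested, Mrc1 (0.125 against 2.03 CPM, log2 fold change 3.99) and Ms4a7 (0.0615 against 2.84 CPM, 5.42), named after their values were seen, were called higher. Dendritic-cell markers, led by Zbtb46, went from 11.7 ± 0.44 to 19.4 ± 2.45 CPM (SD, n = 3). Most of that rise was Itgax, named after its values were seen (0.0799 against 4.68 CPM, called higher). Zbtb46 was also called higher (8.69 against 10.7 CPM), and the other 2 tested were not called. T and NK cell markers, led by Cd8a, went from 1.08 ± 0.37 to 4.13 ± 1.00 CPM (SD, n = 3). Of these 6, Cd8a alone passed the filter, and it was called higher. The part of these cell types in the changes of the 7 genes was not tested.

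Markers of other retinal cells also moved. All 6 rod markers were called lower in NS-treated rd10, with a median log2 fold change of -1.90. The ganglion cell markers, led by Nefl, were at 1224 ± 158 CPM in WT and 1434 ± 100 CPM in NS-treated rd10, with 6 of 7 called higher. The Müller glia markers, led by Glul, were at 3680 ± 133 and 4512 ± 374 CPM, with 5 of 6 called higher. The median log2 fold changes of the ganglion cell and Müller glia lists were 0.30 and 0.85. The part of these cells in the changes of the 7 genes was not tested.

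Set against the summed microglia and macrophage markers of the same library, the 7 genes parted. Csf1r was 12.03%, 11.08% and 12.43% of the marker sum in WT and 10.79%, 8.17% and 10% with NS, a log2 difference of -0.30, so its level moved nearly with the marker sum. That sign depended on the markers chosen: against the 9 homeostatic microglia markers, the difference was 0.52, and against the geometric mean of the 18 markers it was 0.064. Csf2rb went from 0.229% ± 0.154 to 1.62% ± 0.340 of the marker sum (log2 difference 3.02), and Csf2rb2 from 0.192% ± 0.062 to 0.788% ± 0.164 (2.07). Csf3r stayed at 0.825% ± 0.192 and 0.921% ± 0.288, overlapping between the groups. Csf1, Il34 and Csf2ra rose in NS-treated rd10 (2.94-, 1.60- and 1.55-fold by edgeR), but by less than the marker sum (6.64-fold). On this scale they were therefore lower, by log2 differences of -1.18, -2.05 and -2.09. With 3 against 3 libraries the exact permutation test, two-sided, cannot go below p = 0.1, which all of these except Csf3r (p = 0.8) reached, and the adjusted p over the 21 tests of this kind was 0.14.

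**Figure D3:**
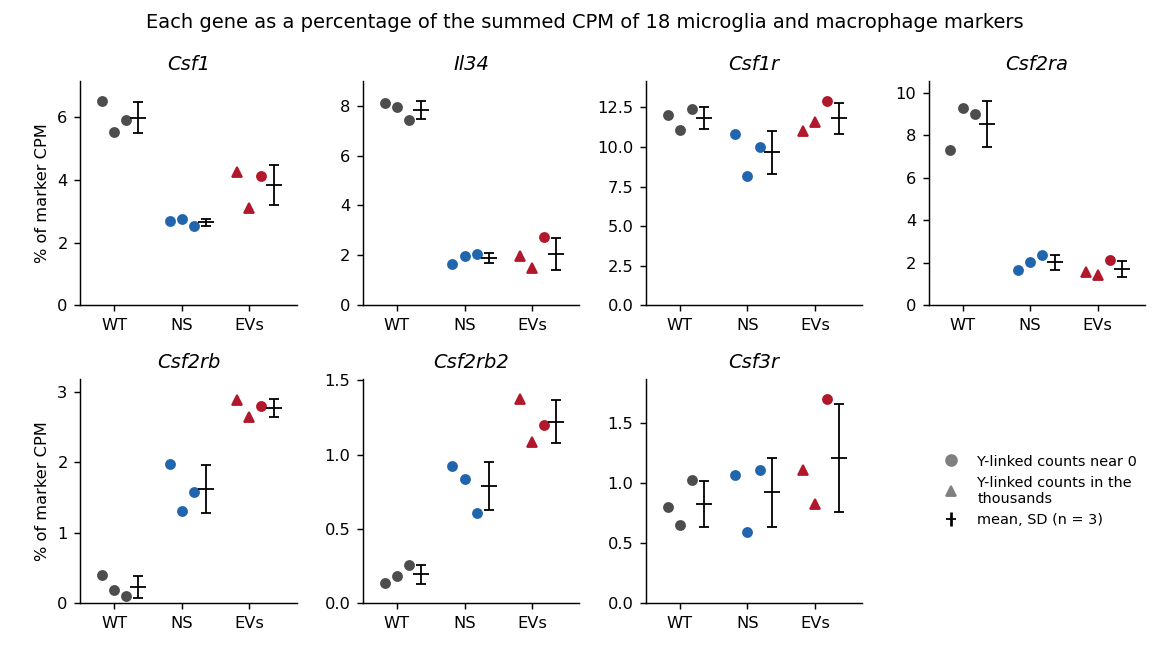
Each of the 7 genes as a percentage (y axis, from 0) of the summed CPM of 18 microglia and macrophage markers in the same library, by group, with the mean and SD (n = 3) and triangles for MSC-EVs replicates 1 and 2, which carry Y-linked counts. Csf2rb and Csf2rb2 lie above WT in all rd10 libraries, and Csf1, Il34 and Csf2ra lie below, having risen less than the marker sum. Csf1r and Csf3r overlap WT in MSC-EVs-treated rd10, where Csf3r is highest in replicate 3 at 1.698%.

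The second comparison asked what MSC-EVs changed relative to NS within rd10. None of the 7 genes passed the adjusted threshold with edgeR, against 1.16% of the 14765 genes tested, and 3 of the 7 (Csf1, Csf2rb and Csf2rb2, each higher with MSC-EVs) had an unadjusted p under 0.05, against 20.2% of all genes. DESeq2's Wald test called 2 of the 7, Csf1 (adjusted p = 0.0285) and Csf2rb (adjusted p = 0.0102), and 6.68% of all genes. Csf1 was the only one of the 7 whose groups did not overlap, against 26.2% of all genes in either direction. The study itself singled out Csf2rb from these libraries, so its value here is not independent evidence.

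Csf1 was at 29.7, 26.1 and 19.9 CPM in the MSC-EVs libraries, each above the highest NS library at 18.9 CPM, with replicate 3 the closest to it. The log2 fold change was 0.53 (SE 0.16, unadjusted p = 0.00892, adjusted p = 0.121 by edgeR). With the replicate number as a block, Csf1 passed the adjusted threshold, as did 403 of the 14765 genes tested. Csf2rb was at 20.1, 22.3 and 13.5 CPM with MSC-EVs against 14.0, 8.76 and 9.20 CPM with NS, a log2 fold change of 0.79 (SE 0.25, adjusted p = 0.143 by edgeR). Replicates 1 and 2 lay above all NS libraries, and replicate 3 lay within their range.

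Csf2rb2 showed the same arrangement of libraries, at 9.59, 9.20 and 5.80 CPM against 6.52, 5.62 and 3.52 CPM, with a log2 fold change of 0.64 (SE 0.27, adjusted p = 0.228 by edgeR). The sum of both copies was 26.9 ± 6.61 CPM with MSC-EVs (SD, n = 3), a log2 fold change of 0.75 (SE 0.25, adjusted p = 0.167 by edgeR). Csf2rb2 took 32.3%, 29.2% and 30.1% of the summed counts in the MSC-EVs libraries, and the mean share did not differ from NS beyond the spread (exact permutation test, two-sided, p = 0.7).

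Csf1r was at 76.7, 98.0 and 62.1 CPM with MSC-EVs (log2 fold change 0.32, SE 0.20, adjusted p = 0.423 by edgeR). Replicate 2 lay above all NS libraries, replicate 1 only just (76.7 against 76.2 CPM in NS replicate 1), and replicate 3 among them. Csf3r, at 7.72, 6.95 and 8.19 CPM, overlapped NS, with a log2 fold change of 0.35 (SE 0.22, adjusted p = 0.406 by edgeR). Il34 was at 13.7, 12.5 and 13.3 CPM (0.09, SE 0.11, adjusted p = 0.666 by edgeR) and Csf2ra at 10.76, 12.02 and 10.2 CPM (-0.25, SE 0.12, adjusted p = 0.286 by edgeR). Csf2ra was the only gene of the 7 with a negative estimate.

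MSC-EVs replicates 1 and 2, the 2 libraries with abundant Y-linked counts, were the higher 2 of their group for Csf1, Csf1r, Csf2rb and Csf2rb2. Since only these 2 libraries carry abundant Y-linked counts, a fit with Y-linked expression as a covariate rests its group difference largely on replicate 3. In that covariate fit, the log2 fold changes between the rd10 groups were 0.20 for Csf1, -0.011 for Csf1r, 0.35 for Csf2rb and 0.15 for Csf2rb2, and none of the 7 was called, against 0.792% of all genes. Without replicates 1 and 2 they were 0.20, -0.026, 0.33 and 0.14, which again rest on replicate 3 and are not a separate check. This fit was chosen after seeing the data, and in it replicate 3 alone stands for MSC-EVs and is taken to vary like the NS libraries. In that fit Il34 was at 0.11, Csf2ra at -0.35 and Csf3r at 0.44, and the sum of both beta chains at 0.27 (SE 0.24, adjusted p = 0.591 by edgeR). Without MSC-EVs replicate 3, which leaves the 2 libraries that carry Y-linked counts, they were 0.69, 0.47, 0.99 and 0.84, and Csf1 alone passed (adjusted p = 0.0488 by edgeR), against 0.823% of all genes. Microglial, monocyte and neutrophil marker sums were likewise lowest in replicate 3: 698, 846 and 482 CPM, 25.2, 20.7 and 3.80 CPM, and 1.502, 1.662 and 0.516 CPM in MSC-EVs replicates 1, 2 and 3. None of the 18 microglia and macrophage markers was called between the rd10 groups by edgeR (1 had an unadjusted p under 0.05, median log2 fold change 0.04), whereas with replicate 3 alone 3 of them were called lower with MSC-EVs, among them Fcrls (-0.9997) and Olfml3 (-0.72). The Müller glia markers summed to 3736, 3587 and 3711 CPM with MSC-EVs, below the 4745, 4080 and 4712 CPM with NS without overlap. None of the 6 was called between the rd10 groups by edgeR, against 1.16% of all genes (median log2 fold change -0.14). An unadjusted p under 0.05 was found for 3 of them, against 20.2% of all genes. The counts of the microglia and macrophage markers with all libraries stand against the same shares. Glul, the largest single part of that sum, had a log2 fold change of -0.49 (adjusted p = 0.14 by edgeR). Gfap, the intermediate filament protein of reactive glia and named after its values were seen, lay the other way without overlap, at 457, 511 and 383 CPM with MSC-EVs and 206, 380 and 310 CPM with NS (log2 fold change 0.60, adjusted p = 0.257 by edgeR). The ganglion cell markers, at 1322, 1282 and 1479 CPM with MSC-EVs and 1472, 1321 and 1510 CPM with NS, overlapped. None of these 7 was called and 3 had an unadjusted p under 0.05 (median -0.21), against 1.16% and 20.2% of all genes. The part of these cells in the values of the 7 genes was not tested. Sex and treatment cannot be told apart within replicates 1 and 2.

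**Figure D4:**
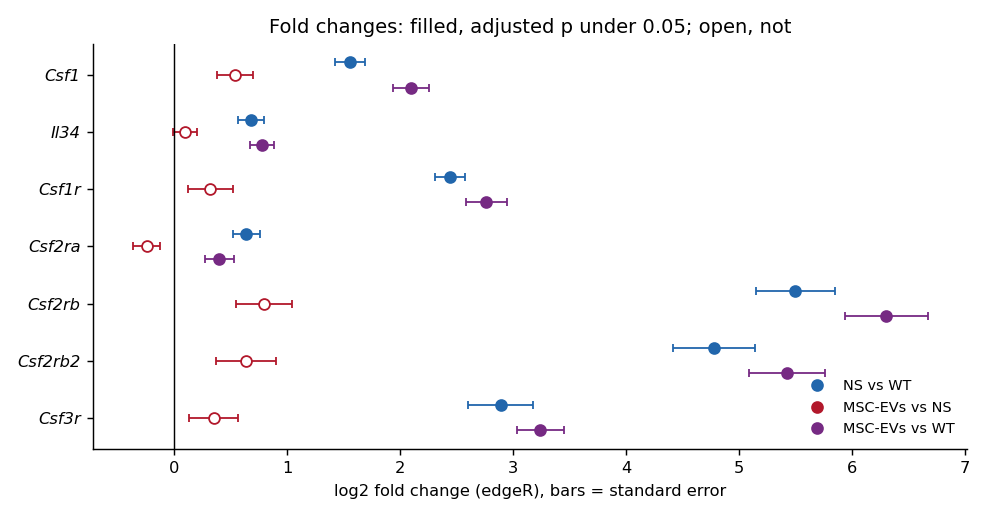
Log2 fold changes (x axis, edgeR) of the 7 genes with standard errors for NS against WT (blue), MSC-EVs against NS (red) and MSC-EVs against WT (purple), from 3 libraries per group. Filled circles have an adjusted p under 0.05; all 14 estimates against WT are filled and positive, and the 7 between the rd10 groups are open.

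Relative to the microglia and macrophage markers of the same library, the MSC-EVs libraries lay closer together, as a share of their mean, than on the CPM scale for Csf1, Csf1r, Csf2rb and Csf2rb2, and farther apart for Il34, Csf2ra and Csf3r. Csf2rb was 2.89%, 2.64% and 2.80% of the marker sum with MSC-EVs and 1.978%, 1.301% and 1.58% with NS, so all MSC-EVs libraries, replicate 3 among them, lay above all NS libraries (log2 difference 0.80). The same held for Csf2rb2 (1.374%, 1.088% and 1.202% against 0.922%, 0.836% and 0.605%), for Csf1 (4.25%, 3.09% and 4.13% against 2.67%, 2.75% and 2.51%) and for Csf1r (10.98%, 11.59% and 12.88% against 10.79%, 8.17% and 10%). The exact permutation test, two-sided, gave p = 0.1 for each of these 4, the smallest it can give, with an adjusted p of 0.14. Il34, Csf2ra and Csf3r overlapped between the rd10 groups on this scale. With replicate 3 alone set against NS, the log2 differences, which then have no test, were 0.81 for Csf2rb, 0.63 for Csf2rb2, 0.64 for Csf1, 0.43 for Csf1r, 0.54 for Il34 and 0.94 for Csf3r. That of Csf2ra was 0.083, against -0.26 with all 3 libraries.

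In the downstream lists, 2 of 45 genes were called between the rd10 groups, both higher with MSC-EVs, against 1.16% of all genes, and 12 had an unadjusted p under 0.05, against 20.2%. Stat3 rose to 385, 387 and 372 CPM, above all NS libraries (log2 fold change 0.54, adjusted p = 0.0252 by edgeR). Cbl rose from 95.2, 80.8 and 81.6 CPM with NS to 125, 128 and 115 CPM (log2 fold change 0.51, adjusted p = 0.0261 by edgeR). For both genes MSC-EVs replicate 3, with few Y-linked counts, lay above the NS range as well. Both calls were lost without NS replicate 3 and without MSC-EVs replicate 1, where edgeR called 0 of all genes tested. With the Y-linked covariate, which leaves the group difference to rest largely on replicate 3, 0 of the 45 were called, against 0.792% of all genes. With replicate 3 alone standing for MSC-EVs, Stat3 (0.50) and Cbl (0.42) were not called, and 2 other genes were, against 1.93% of all genes: Socs3 and Cebpb, both lower with MSC-EVs (log2 fold changes -0.71 and -1.51, adjusted p = 0.0198 and 0.0141 by edgeR). Both were picked after their values in that fit had been seen.

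The third comparison set MSC-EVs-treated rd10 against WT, with the same MSC-EVs and WT libraries as above. All 7 genes were called higher, against 28.3% of the 14623 genes tested, and 27.2% of all genes were called lower. With at least 2-fold, 5 of 7 were called higher, against 9.0%, and all 7 were higher without overlap, against 31.9%. The log2 fold changes were 2.10 for Csf1, 0.78 for Il34, 2.76 for Csf1r, 0.40 for Csf2ra, 6.30 for Csf2rb, 5.43 for Csf2rb2 and 3.24 for Csf3r, with a median of 2.76. Csf2ra had the smallest margin (SE 0.13, adjusted p = 0.0242 by edgeR). Its call was lost with the Y-linked covariate and without WT replicate 1, WT replicate 3 or MSC-EVs replicate 2 (log2 fold changes 0.28, 0.31, 0.43 and 0.32). With 1 library left out its estimate ranged from 0.31 to 0.45. That of Csf2rb, which again rests on few WT counts, ranged from 5.98 to 6.997, the highest without WT replicate 1. With replicate 3 alone standing for MSC-EVs, the other 6 genes were again called higher, against 25.7% of all genes, by 0.78 for Il34 to 5.84 for Csf2rb, and Csf2ra was not (0.29). Of the downstream lists, 36 of 45 genes were called higher and 1 lower, with Socs3 at a log2 fold change of 4.32, Spi1 at 4.41, Tyrobp at 3.35 and Mef2c at -2.07.

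The authors' FPKM values moved more than the counts for some of these genes. The transcript length that joins a library's count to its FPKM stayed at 1.71 to 1.73 kb for Il34 in all 9 libraries. For Csf1r it was 3.17, 3.87 and 3.80 kb in WT, 2.90, 4.01 and 3.92 kb in NS-treated rd10 and 2.53, 3.16 and 2.88 kb in MSC-EVs-treated rd10. For Csf2rb it was 4.76, 3.09 and 4.77 kb with NS and 2.99, 3.21 and 3.28 kb with MSC-EVs. On log2(FPKM + 1), the limma estimate between the rd10 groups, relative to the median gene, was 0.61 for Csf1r and 0.95 for Csf2rb, larger than the 0.32 and 0.79 from the counts, and neither was called. Which isoforms were assigned in which library was not tested.

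Over the 9 libraries, the genes whose profile lay closest to each of the 7 were found by the root-mean-square difference between centred log2(CPM + 0.5) values, among 13828 genes with a mean of at least 1 CPM. Csf1 lay closest to Trim56 (0.13), Myof (0.13) and Rab32 (0.14). Il34 lay closest to Ddah1 (0.05), Sri (0.06) and Scn7a (0.06), and Csf2ra to Tceal8 (0.06), Tyw5 (0.07) and Rasa4 (0.07). Among the genes closest to Csf1r were Tagln2 (0.14) and Cd86 (0.15), a co-stimulatory molecule of antigen-presenting cells. Csf2rb lay closest to the inhibitory Fc receptor Fcgr2b (0.26), Ifi204 (0.27) and C4b (0.30), and Csf2rb2 to Tlr7 (0.18), the complement receptor C3ar1 (0.19) and Ifi207 (0.20). Csf3r lay closest to Irf9 (0.25), Csf1r (0.26) and Hkdc1 (0.27). The 9 libraries fall into 3 groups and differ in depth, so these are descriptions over 9 points, and the nearest genes of the low-count receptors were farther away than those of Il34 and Csf2ra.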

How the data were processed

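RNA-seq of 9 retinas or pools (3 per group) was analysed. The authors deposited, per gene and library, an estimated count, not scaled to library size, and an FPKM value, scaled to transcript length and depth. The submitters' processing notes name fastp, Bowtie2, HISAT2, StringTie 1.3.1 and RSEM without their roles, and the build and annotation are not given in the sources used here. Groups came from the sample titles. Between 9.2% and 11.7% of genes per library had decimals, so counts were rounded. Replicates differed by more than sampling noise (a chi-square of 4.1 to 31.3 per degree of freedom), so each counted as 1 sample.

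Each pair of groups (6 libraries) was fitted over all genes by the quasi-likelihood method of edgeR 4.0.16 under R 4.3.3 (glmQLFit robust, glmQLFTest, after filterByExpr and TMM); SE is the absolute log2 fold change divided by the square root of F, and a gene was called at an adjusted p (Benjamini-Hochberg) under 0.05, with 2-fold as an added limit. Scripts were tested on simulated data. Alternatives were other scalings and filters, DESeq2 1.42.0, limma 3.58.1 on log2(FPKM + 1) and log2(FPKM + 0.1), 1 fit of all 9 libraries, a replicate block, a Y-linked covariate, both beta chains summed, other marker denominators, each library left out and, added after seeing the data, MSC-EVs replicates 1 and 2 left out together. The 7 genes, the lists and the named-gene rule (per list, the 2 most abundant genes, the largest called rise and fall, and all 4 ligands; per marker list, its most abundant gene and any at 0, abundance being mean FPKM) were chosen with earlier results of these data known. Some genes that the rule covers are not reported here. The erythrocyte list (led by Hbb-bs) summed to 78.9 ± 13.2, 65.9 ± 1.88 and 62.3 ± 7.94 CPM in WT, NS and MSC-EVs, and the retinal pigment epithelium list (led by Ttr) to 74.2 ± 21.6, 132 ± 77.7 and 114 ± 73.2 CPM (SD, n = 3).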

Additional observations from a re-analysis of the deposited data

How the results depend on the processing

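Of 788 values recomputed under alternatives, 746 were counted as unchanged. For the log2 fold change of a gene this meant the same direction and the same side of the threshold. For a count of calls it meant staying within a set ratio of the main count, and for the other values the same direction only. Between NS and WT, all 7 genes were called in every alternative that tested all 7. Demanding 10 counts or more of each library removed Csf2rb and Csf2rb2. That left 3 genes called with a 2-fold limit against WT in NS and likewise 3 in MSC-EVs. Over all genes, 941 of 13763 tested in NS and 960 of 13753 in MSC-EVs were then called higher with that limit. Between the rd10 groups, where edgeR called 0 of the 7, DESeq2 called 2, the replicate block 1 (Csf1, adjusted p = 0.0326), and leaving out 1 library 0 to 1. Of the downstream lists, with 2 calls, DESeq2 called 4, a fit of all 9 libraries 5, limma on log2(FPKM + 1) 1, the Y-linked covariate 0, and leaving out 1 library 0 to 3. Over all genes, 172 were called (135 higher), against 909 with DESeq2, 1026 with all 9 libraries in 1 fit, 403 with the block, 154 with upper-quartile scaling (97 higher), 117 with the Y-linked covariate, 32 and 676 when NS or MSC-EVs replicate 2 was left out, and 0 when NS replicate 3 or MSC-EVs replicate 1 was (1991 and 2052 at an unadjusted p under 0.05, edgeR). Replicate numbers were not taken as pairs, since the labels do not tie them to litters. The paper does state that rd10 littermates were given either MSC-EVs or NS. Same-numbered libraries correlated at -0.08 to 0.09 between NS and WT and at 0.09 to 0.27 between the rd10 groups. Between the rd10 groups each library correlated best with its own number. The block changed no other call among the 7.

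Signs changed as follows. The Csf1r log2 fold change between the rd10 groups was -0.011 with the Y-linked covariate and -0.026 without MSC-EVs replicates 1 and 2 (chosen after seeing the data), both resting largely on MSC-EVs replicate 3. Relative to markers, Csf1r in NS against WT was 0.52 with the homeostatic list and 0.064 with the geometric mean, and in MSC-EVs against WT, near 0, it was 0.98, 0.36 and 0.067 (homeostatic list, geometric mean, FPKM), 0.12 without MSC-EVs replicates 1 and 2, and -0.0685 to 0.0467 with 1 library left out. Csf2ra between the rd10 groups was 0.083 without MSC-EVs replicates 1 and 2. Csf1 in MSC-EVs against WT was 0.32 with the homeostatic list. Csf3r in NS against WT was -0.081 with FPKM and -0.035 to 0.42 with 1 library left out. With 1 library left out, Il34 relative to markers between the rd10 groups ranged from -0.15 to 0.30, and the Csf2rb2 share from -4.95 to 0.757 percentage points. The cause was not tested for any of these. FPKM raised the median gene by 0.13 (pseudocount 1) and 0.18 (0.1) in NS against WT and by 0.11 and 0.15 in MSC-EVs against WT; all 7 genes stayed higher relative to it. Depth limited the WT values of Csf2rb, Csf2rb2 and Csf3r and all values of Csf2, Csf3, Il3 and Il5.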

Other observations

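Csf3, the G-CSF ligand, had 46 counts in MSC-EVs replicate 2 and at most 7 in any other library. In the same library Socs3 was at 126 CPM, against 55.6 and 41.1 CPM in MSC-EVs replicates 1 and 3 and 67.9, 61.7 and 72.6 CPM with NS. Cebpb was at 23.1 CPM there, near the 20.8, 20.8 and 15.2 CPM with NS, while replicates 1 and 3, at 9.63 and 6.63 CPM, lay below every NS library. Csf3r, the G-CSF receptor, was lowest of the MSC-EVs group in replicate 2, at 6.95 CPM. These values were picked after they had been seen, and no test was made of them.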
